A study of Mus musculus with 12 samples.

Results

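The genes described here are 34 members of glycolysis and the pentose phosphate pathway, out of 17922 genes in the expression table. They were chosen by name, as the enzymes of both pathways and the enzymes that set the level of the glycolytic signal fructose 2,6-bisphosphate, and not by a threshold on any measured value. The samples were primary chondrocytes, the cells of cartilage, taken from mouse ribs with collagenase and cultured for about a day before poly(A) RNA sequencing. The study asked what follows in the skeleton when glycolysis, or the pool of acetyl-CoA in the cytoplasm, is reduced in chondrocytes. It has 4 groups with 3 samples each. The LDH knockout, at postnatal day 5, carried Col2-Cre, 2 floxed alleles of Ldha and a single intact allele of Ldhb, which encode the subunits of lactate dehydrogenase. The Acly knockout, at embryonic day E18.5, carried Col2-Cre and 2 floxed alleles of Acly, whose product ATP citrate lyase makes acetyl-CoA from citrate. Col2-Cre drives recombination from the promoter of a cartilage collagen gene, so other cell types in a culture need not carry the deletion. The controls were littermates labelled LDH and Acly, with no further genotype given, and all mice had a mixed background in which C57BL/6 dominated. Nothing in the labels says whether a sample was 1 animal or a pool, so p-values measure the spread between these samples, which may be technical.

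Glycolysis splits glucose into pyruvate with a small gain of ATP, and lactate dehydrogenase lets it go on by turning pyruvate into lactate and returning NADH to NAD+. Cartilage has no blood vessels and little oxygen, and its cells rely heavily on glycolysis. The pentose phosphate pathway branches off at glucose 6-phosphate: its oxidative arm makes NADPH, used for lipid synthesis and against oxidants, and its non-oxidative arm exchanges sugars between ribose 5-phosphate and the glycolytic intermediates.

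Each library held 26362407 to 28154143 expected counts, so that 3 counts, taken as the floor, correspond to 0.107 to 0.114 counts per 1000000 counts (CPM). Values below this floor are printed as they are. Levels below are CPM scaled by TMM within a set, or transcripts per 1000000 transcripts (TPM), which are per length, where genes are compared with each other. A gene was called at an adjusted p under 0.05 by edgeR's quasi-likelihood test over all genes tested. Ldha fell in the LDH knockout (log2 fold change -3.29, standard error 0.10, edgeR adjusted p 3.26e-07) and Acly in the Acly knockout (-1.41, standard error 0.17, edgeR adjusted p 0.0313). Ldhb was not called in the LDH knockout. It was at 14.6, 16.1 and 14.3 CPM in knockouts and 12.4, 11.6 and 11.2 CPM in controls, not scaled by TMM. The chondrocyte markers Col2a1, Acan and Sox9 were present in all 12 samples, and the summed level of 8 chondrocyte markers was 18780 to 27740 CPM in LDH knockouts against 10460 to 12010 in their controls, and 15200 to 17190 CPM in Acly knockouts against 9078 to 10240. Summed over 4 Y-linked genes, LDH knockouts were at 0 to 0.0367 CPM and LDH control replicates 1 to 3 at 93.0, 102 and 0.590 CPM, while in the Acly set samples with and without such signal occurred in both groups. Acly knockout replicate 2 stood apart from the other Acly samples, with the lowest summed markers of skeletal muscle, bone-forming cells, fibroblasts and proliferation of its set. It also had the lowest level of Acly itself, 49.31 CPM against 84.25 and 86.54 CPM in knockout replicates 1 and 3, not scaled by TMM. In bulk RNA, fewer cells of a type and less RNA per cell cannot be told apart.

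The level of the enzymes along the pathway was examined first. Gapdh, which oxidizes glyceraldehyde 3-phosphate, was the most abundant member, at a mean of 8610 TPM over the 12 samples and a range of 7275 to 10595 TPM. Eno1, the main enolase, followed at 2042 TPM, then the aldolase gene Aldoa at 1528 TPM and the pyruvate kinase gene Pkm at 1257 TPM. These 4 stood above every other member: the next were Pgam1 at 536 TPM, the phosphoglucose isomerase gene Gpi1 at 509 TPM and Pgk1 at 460 TPM. Pgam1, Gpi1 and Pgk1 overlapped in their ranges over samples (470 to 653, 467 to 562 and 353 to 560 TPM).

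The first committed steps were far lower. Hexokinase was mostly Hk1, at 62.0 TPM, with Hk2, the form known to respond to hypoxia and growth signals, at 16.0 TPM and Hk3 at 2.10 TPM. Of the phosphofructokinases, the enzymes of the main control step, Pfkl stood at 69.1 TPM, Pfkm at 22.0 TPM and Pfkp at 9.59 TPM. Among the bifunctional enzymes that make or remove fructose 2,6-bisphosphate, the activator of phosphofructokinase, Pfkfb3 was the most abundant at 21.1 TPM, and Pfkfb1, Pfkfb2 and Pfkfb4 were between 2.02 and 3.23 TPM. Tigar, which degrades that signal, was at 8.51 TPM.

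Of the pentose phosphate enzymes, Pgd was at 352 TPM, Pgls at 295 TPM, Taldo1 at 264 TPM, Tkt at 263 TPM and G6pdx at 131 TPM, while Rpe (35.5 TPM) and Rpia (17.96 TPM), which interconvert the pentose phosphates, were lowest. G6pdx encodes glucose 6-phosphate dehydrogenase, the entry enzyme of the oxidative arm, and it was the least abundant of that arm's 3 enzymes. Hkdc1, Fbp1 and Fbp2 reached at most 5, 8 and 14 counts in any sample, so the gluconeogenic fructose bisphosphatases were close to the floor in every group. The muscle enzyme Pgam2 was at 1 to 10 counts in LDH samples and 22 to 56 counts in Acly samples.

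**Figure D1:**
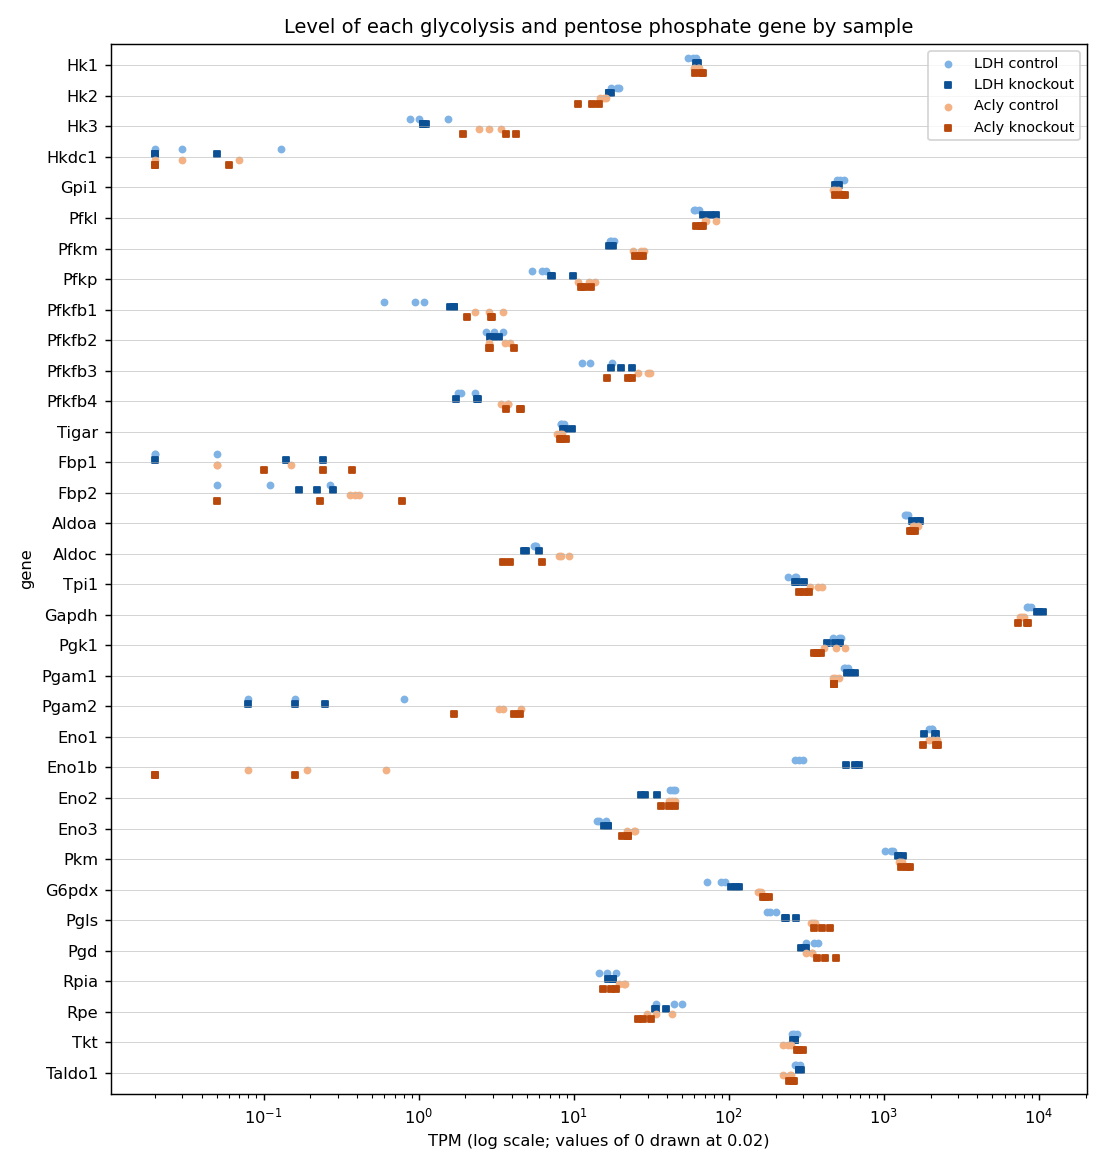
TPM (log scale, values of 0 drawn at 0.02) of each of the 34 genes, with 1 point per sample and a colour per group. Gapdh, Eno1, Aldoa and Pkm lie above 1000 TPM in every sample, Hkdc1 and Fbp1 lie at or below 0.37 TPM, and Eno1b is split between the sets.

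The comparison of LDH knockouts with their controls asked whether the enzymes upstream of lactate dehydrogenase change when Ldha is reduced. Of the 34 genes, 30 passed the filter on low counts (not Hkdc1, Fbp1, Fbp2 and Pgam2), and 2 of these were called, Eno1b higher and Eno2 lower. That is 6.67% of the members tested, where 2.49% of all 13321 genes tested were called. At an unadjusted p under 0.05 there were 11 members, the 2 called among them, or 36.7% of the members against 19.6% of all genes. Of these 11, 10 (all except Pfkl) had groups that did not overlap. That combination held for 16.1% of all genes. Members were higher in all 3 knockouts than in all 3 controls in 11 cases and lower in 3, and the same was true of 11.9% and 12.5% of all genes. The median log2 fold change of the 30 was 0.12, against 0.01 over all genes tested, with 21 members above 0 and 9 below, where 51.0% of all genes were above 0.

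In the upper part of glycolysis no hexokinase or phosphofructokinase was called. Hk2 was at 51.3, 50.9 and 49.0 CPM in knockout replicates 1 to 3 and at 55.8, 53.2 and 53.3 CPM in control replicates 1 to 3. The groups did not overlap, but the log2 fold change was -0.10 with an edgeR adjusted p of 0.460. Hk1 (0.12), Gpi1 (-0.05) and Pfkm (0.01) overlapped between the groups.

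Pfkl was at 129, 145 and 112 CPM in knockouts and 101, 95.9 and 113 CPM in controls, so knockout replicate 3 lay just below the highest control (log2 fold change 0.32, standard error 0.10, edgeR adjusted p 0.136). Pfkp, the platelet form of phosphofructokinase, was at 13.0, 19.5 and 13.9 CPM in knockouts and 12.2, 12.1 and 10.4 CPM in controls. Its groups were narrowly apart, with knockout replicate 2 well above the rest (log2 fold change 0.42, edgeR adjusted p 0.201).

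None of the enzymes of the fructose 2,6-bisphosphate signal was called, and Pfkfb3 and Pfkfb1 had separate groups. Pfkfb3, whose kinase activity outweighs its phosphatase activity and so favours glycolysis, was at 48.9, 58.4 and 41.0 CPM in knockouts and 40.6, 25.6 and 30.9 CPM in controls. Every knockout was above every control, though knockout replicate 3 and control replicate 1 nearly met. The difference did not pass (log2 fold change 0.61, standard error 0.17, edgeR adjusted p 0.0946). Pfkfb1, known as the liver and muscle form, was at 1.56, 1.53 and 1.499 CPM against 0.948, 0.848 and 0.601 CPM, a log2 fold change of 0.93 at a very low level (edgeR adjusted p 0.107). Pfkfb1 is on the X chromosome, and its lowest sample was control replicate 3, the control with a low Y-linked signal. Pfkfb2 (-0.04), Pfkfb4 (0.16) and Tigar (0.12) overlapped between the groups. Pfkfb3 and G6pdx (below) were the members at an unadjusted p under 0.05 with separate groups in both knockout comparisons, so the promoters of both are printed. RefSeq on GRCm38.p6, which is not the mm9 build named in the submitters' processing notes, gives Pfkfb3 start sites whose preceding 250 bases are chr2:11502091-11502340 and chr2:11553930-11554179, both on the minus strand. Capitals mark ACGTG or GCGTG, the core of the hypoxia response element, on either strand.
Pfkfb3 window at 11502091: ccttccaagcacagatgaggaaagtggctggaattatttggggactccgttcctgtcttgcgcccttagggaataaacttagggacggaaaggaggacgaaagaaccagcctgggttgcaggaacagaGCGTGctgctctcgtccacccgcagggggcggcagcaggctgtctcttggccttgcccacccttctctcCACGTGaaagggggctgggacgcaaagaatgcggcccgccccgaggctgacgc
Pfkfb3 window at 11553930: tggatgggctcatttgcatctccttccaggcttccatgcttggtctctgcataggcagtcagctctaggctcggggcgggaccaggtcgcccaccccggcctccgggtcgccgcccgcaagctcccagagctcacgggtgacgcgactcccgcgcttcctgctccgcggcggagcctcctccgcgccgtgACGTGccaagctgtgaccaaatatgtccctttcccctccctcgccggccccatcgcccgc
The former window holds 3 matches, of which 2 overlap within a CACGTG (an E-box, read alike on both strands), and the latter holds 1.

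In the lower part of glycolysis, the abundant enzymes Gapdh, Aldoa, Pkm and Pgam1 were each slightly above the controls in every knockout, and none was called. Gapdh was at 6851, 7467 and 6490 CPM in knockouts and 5570, 5529 and 6317 CPM in controls (log2 fold change 0.26, standard error 0.10, edgeR adjusted p 0.177). Its lowest knockout and highest control differed by little. Aldoa was at 1331, 1330 and 1163 CPM against 1055, 1055 and 1110 CPM (log2 fold change 0.25, edgeR adjusted p 0.163). Pkm, which makes pyruvate, the substrate of lactate dehydrogenase, was at 1600, 1739 and 1538 CPM against 1410, 1232 and 1469 CPM (log2 fold change 0.25, edgeR adjusted p 0.201). In each of these 3 genes knockout replicate 3 was the lowest knockout and control replicate 3 the highest control. Pgam1 was higher by less (log2 fold change 0.14, edgeR adjusted p 0.367). Pgk1, which makes the first ATP of the pathway, was at 409, 471 and 483 CPM in knockouts, within and around the 461 to 473 CPM of controls (log2 fold change -0.05). Tpi1 (0.14) and Aldoc (-0.08) overlapped too. With the covariate for Y-linked signal the log2 fold changes of Gapdh, Aldoa, Pkm and Pfkl were 0.057, 0.16, 0.080 and 0.094 (edgeR adjusted p 0.893, 0.663, 0.854 and 0.842). All LDH knockouts had almost no such signal, and among the LDH controls only replicate 3 came near them. Every LDH fit with this covariate therefore rests largely on that 1 control, and separates Y-linked signal from genotype poorly.

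The 2 calls were both enolases, which convert 2-phosphoglycerate to phosphoenolpyruvate. Eno2, known as the neuronal form, was at 36.8, 39.9 and 45.2 CPM in knockouts and 57.9, 52.4 and 62.1 CPM in controls. All 3 knockouts lay below all 3 controls. Control replicate 3, the control with a low Y-linked signal, was the highest control, a single sample that decides nothing about that signal. Eno2 fell by 0.50 on the log2 scale (standard error 0.10, edgeR adjusted p 0.0346). It was lower in all of 15 alternative analyses and called in 10 of them. The call was lost without knockout replicate 1 or 2 (edgeR adjusted p 0.149 and 0.120) and without control replicate 1 or 3 (0.0993 and 0.0934). It was also lost with a covariate for Y-linked signal (0.283), where the log2 fold change was -0.66 (standard error 0.17). The fit with this covariate rests largely on control replicate 3. Its promoter, the 250 bases before the RefSeq start on the minus strand of GRCm38.p6 chr6:124769674-124769923, is shown as that of the member called with whole-number counts.
Eno2: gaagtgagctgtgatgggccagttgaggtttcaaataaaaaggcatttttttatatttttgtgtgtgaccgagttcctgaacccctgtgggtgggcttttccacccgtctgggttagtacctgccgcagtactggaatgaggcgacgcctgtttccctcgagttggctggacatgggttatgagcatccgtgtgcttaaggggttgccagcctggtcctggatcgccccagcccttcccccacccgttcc
It has no capitals because it holds neither ACGTG nor GCGTG on either strand, which says only that these letters are not in this window.

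Eno1b was at 519, 645 and 578 CPM in LDH knockouts and 237, 245 and 284 CPM in their controls. Every knockout was far above every control, and the gene rose by 1.19 on the log2 scale (standard error 0.11, edgeR adjusted p 0.00194). The call was kept in 14 of 15 alternatives and lost with the Y-linked covariate (log2 fold change 0.94, edgeR adjusted p 0.227). This value is uncertain, because the longest reading frames of Eno1 and Eno1b in the reference transcripts, 1305 bases each, differ at 8 bases (99.39% identity) and share an identical run of 725 bases. Counts of Eno1, Eno1b, Gapdh and Gpi1 were not whole numbers in 10 to 12 of the 12 samples, and those of the other 30 members were whole to the decimals given. Eno1 itself was at 1665, 2023 and 1943 CPM in knockouts and 1731, 1787 and 1946 CPM in controls, with overlapping groups and a log2 fold change of 0.04.

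With the counts of Eno1 and Eno1b summed before the fit, the level was 2184, 2668 and 2520 CPM in LDH knockouts and 1968, 2031 and 2230 CPM in controls. Knockout replicate 1 then lay below control replicate 3, and the log2 fold change of 0.24 (standard error 0.10) did not pass, at an edgeR adjusted p of 0.221. Eno1b took 23.9%, 24.4% and 23.1% of the summed TPM of both genes in LDH knockouts and 12.1%, 12.2% and 12.9% in LDH controls. The spread within each group was thus far smaller than the gap between them (two-sided exact permutation p 0.1, the smallest that 3 against 3 samples allow). In the Acly set Eno1b was almost not assigned any reads: knockout replicates 1 to 3 had 0, 0 and 3.89 expected counts and controls 4.65, 14.4 and 1.94, at most 0.0298% of the summed TPM.

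**Figure D2:**
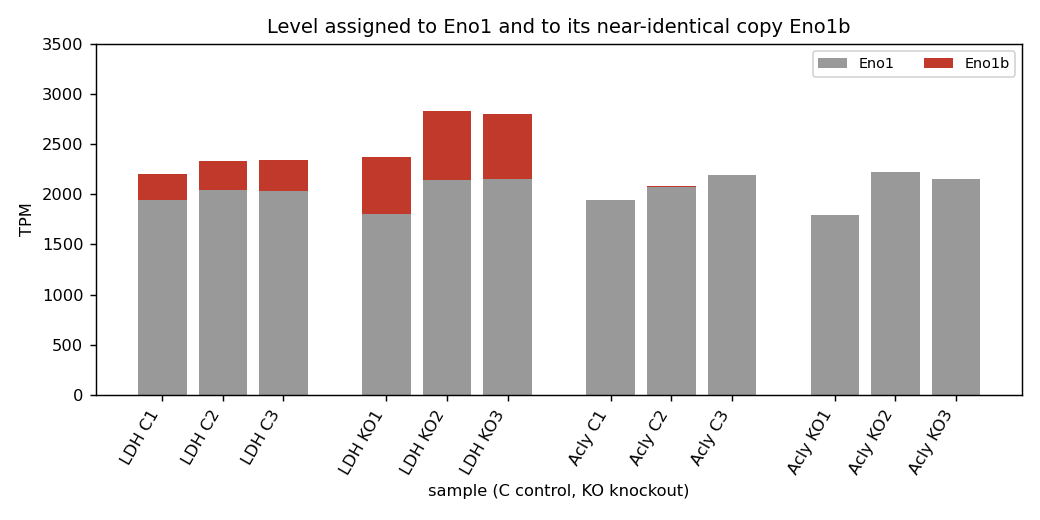
Stacked bars give the TPM assigned to Eno1 (grey) and Eno1b (red) in each of the 12 samples. Eno1b is 569 to 689 TPM in LDH knockouts, 268 to 301 TPM in LDH controls and at most 0.62 TPM in the Acly set, while Eno1 lies between 1792 and 2224 TPM in all samples.

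In the pentose phosphate pathway of the LDH set no gene was called, and the first 2 enzymes of the oxidative arm came closest. G6pdx was at 152, 165 and 139 CPM in knockouts and 119, 123 and 104 CPM in controls, with all knockouts above all controls (log2 fold change 0.40, standard error 0.09, edgeR adjusted p 0.0566). It was called in 5 of 15 alternatives, among them DESeq2 and the fit without knockout replicate 3 (adjusted p 0.00565 and 0.0232). With another sample left out the edgeR adjusted p reached 0.191. Over all 15 alternatives the highest adjusted p was 0.283, and the log2 fold change ranged from 0.33 to 0.62. G6pdx lies on the X chromosome, and control replicate 3, the control with a low Y-linked signal, was the lowest of the 6 samples. The 250 bases before its RefSeq start on the minus strand of GRCm38.p6 chrX:74428881-74429130 hold 1 hypoxia core, in capitals, and 1 antioxidant response core (TGACNNNGC, on either strand), left in lower case.
G6pdx: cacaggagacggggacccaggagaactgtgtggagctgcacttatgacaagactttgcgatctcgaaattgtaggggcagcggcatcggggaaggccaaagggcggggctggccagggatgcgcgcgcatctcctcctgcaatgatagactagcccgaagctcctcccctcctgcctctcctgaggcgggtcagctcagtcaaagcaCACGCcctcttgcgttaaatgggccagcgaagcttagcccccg
Pgls, the lactonase that follows G6pdx, was at 104, 122 and 100 CPM against 79.0, 73.6 and 92.4 CPM, also with separate groups (log2 fold change 0.41, standard error 0.11, edgeR adjusted p 0.0769), and with the Y-linked covariate its log2 fold change was 0.12 (edgeR adjusted p 0.775). Pgd, the second NADPH-making enzyme of the arm, was on the other side: at 292, 281 and 290 CPM in knockouts it lay below the 325, 332 and 309 CPM of controls (log2 fold change -0.16, edgeR adjusted p 0.272). In the non-oxidative arm Taldo1 was narrowly higher in every knockout (log2 fold change 0.08), and Tkt (0.03), Rpia (0.12) and Rpe (-0.24) overlapped.

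Summed over the 34 genes, TPM was 1.86%, 1.98% and 1.87% of all transcripts in LDH knockouts and 1.65%, 1.66% and 1.70% in LDH controls. The groups were separate with Gapdh left out as well, at 0.897% ± 0.0296 against 0.810% ± 0.00125 (SD, n = 3). Both sums include Eno1b, whose value is uncertain, at a mean of 635 TPM in knockouts and 284 TPM in controls. The 7 pentose phosphate genes took 0.126% ± 0.000755 and 0.122% ± 0.00331, with every knockout above every control by a small margin. Other measures moved between the LDH groups. Of 8 tested fat markers 6 were called higher in knockouts (sum of 10 markers 75.7 to 120 CPM against 38.0 to 53.9 CPM, with Lep at or below 0.0725 CPM in all 6 samples), 4 of 7 tested chondrocyte markers were called higher, and 2 of 5 tested bone-forming markers were called lower (sum of 8 markers 79.6 to 107 against 150 to 266 CPM, with Mepe at 0). Of 10 tested muscle markers 2 were called higher, Tnnt3 (1.47) and Tnni2 (1.61), with sums of 12 markers of 18.1 to 30.2 against 18.9 to 31.4 CPM that overlapped. Of 7 fibroblast and perichondrium markers 1 was called lower, Col1a2 (-1.0035), with overlapping sums of 603.5 to 772 against 519 to 939 CPM. Their part in the values of the members was not tested. That of the Y-linked signal was looked at only with the covariate, which rests largely on control replicate 3.

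**Figure D3:**
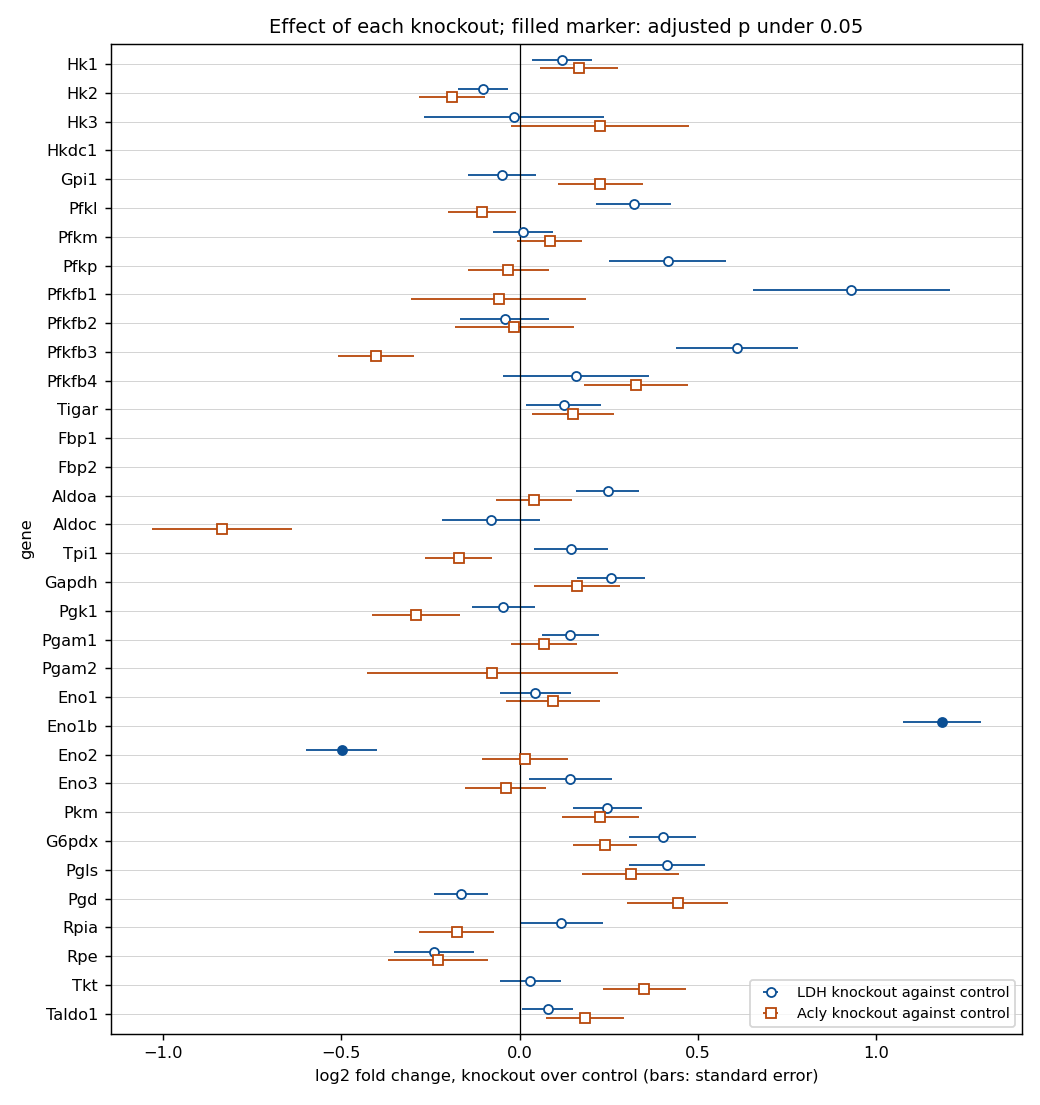
Log2 fold change of each member with its standard error, LDH knockout over control (circles) and Acly knockout over control (squares), with filled markers for an edgeR adjusted p under 0.05. Only Eno1b (1.19) and Eno2 (-0.50) in the LDH comparison are filled, and members that failed the filter on low counts have no marker.

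The comparison of Acly knockouts with their controls asked the same of cells with less ATP citrate lyase. Of the 30 members tested (not Hkdc1, Fbp1, Fbp2 and Eno1b), 0 were called by edgeR, with 7 at an unadjusted p under 0.05, and DESeq2 called 1, Aldoc. The background was 0.136% of 13973 genes called, and 15.8% at an unadjusted p under 0.05. Knockouts were above all controls for 5 members (Pfkfb4, Pgd, G6pdx, Tigar and Tkt) and below all controls for 5 (Aldoc, Pfkfb3, Tpi1, Rpia and Hk2), and such separation was seen upward in 10.7% and downward in 11.3% of all genes. The median log2 fold change was 0.05, against -0.0018 over all genes, with 17 members above 0 and 13 below, where 49.7% of all genes were above 0.

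None of the 5 members below all controls was called. Aldoc, an aldolase known mainly from brain, was at 8.62, 5.64 and 5.56 CPM in knockouts and 11.8, 10.7 and 12.9 CPM in controls. The groups were well apart, with knockout replicate 1 nearest to the controls, and the log2 fold change of -0.83 (standard error 0.20) did not pass in edgeR at an adjusted p of 0.187. Pfkfb3 was at 55.5, 44.5 and 53.8 CPM against 63.2, 69.6 and 70.8 CPM, with separate groups (log2 fold change -0.40, standard error 0.11, edgeR adjusted p 0.219). Its lowest sample was knockout replicate 2, and without that sample the value was -0.31 (edgeR adjusted p 0.158), against -0.73 for Aldoc (0.121). Hk2 was at 42.1, 35.8 and 39.0 CPM against 43.7, 43.2 and 46.3 CPM, and Tpi1, the triose phosphate isomerase gene, at 248, 267 and 276 CPM against 277, 289 and 324 CPM. Both were narrowly separate, with log2 fold changes of -0.19 and -0.17 and edgeR adjusted p of 0.350 and 0.389. Rpia, the ribose phosphate isomerase, was at 16.9, 16.1 and 16.1 CPM against 18.03, 18.2 and 19.3 CPM (log2 fold change -0.18, edgeR adjusted p 0.414). Pgk1 was at 329, 398 and 375 CPM against 393, 435 and 520 CPM, where knockout replicate 2 lay above control replicate 1 (log2 fold change -0.29, edgeR adjusted p 0.309).

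None of the 5 members above all controls was called either. Pgd was at 389, 514 and 359 CPM in knockouts and 328, 277 and 323 CPM in controls (log2 fold change 0.44, standard error 0.14, edgeR adjusted p 0.252). Tkt, transketolase, was at 461, 578 and 485 CPM against 436, 359 and 401 CPM, with 0.35 (standard error 0.12, edgeR adjusted p 0.259). G6pdx was at 245, 269 and 231 CPM against 214, 201 and 216 CPM, with 0.24 (standard error 0.09, edgeR adjusted p 0.279). In all 3 genes knockout replicate 2, which stood apart and had the lowest Acly level, was the highest. The knockouts were still above all controls without it. Leaving it out gave log2 fold changes of 0.28, 0.25 and 0.18 for Pgd, Tkt and G6pdx, with edgeR adjusted p of 0.230, 0.262 and 0.351. Pgls was at 154, 224 and 178 CPM against 159, 139 and 150 CPM, where knockout replicate 1 lay within the controls; its log2 fold change was 0.31, and 0.15 without knockout replicate 2. The other members above all controls act on the fructose 2,6-bisphosphate signal. Pfkfb4 was at 7.73, 6.99 and 7.65 CPM against 6.37, 5.90 and 5.58 CPM (log2 fold change 0.33, standard error 0.15, edgeR adjusted p 0.323), and Tigar at 15.5, 18.3 and 17.4 CPM against 15.3, 15.3 and 15.5 CPM (0.15, standard error 0.11, edgeR adjusted p 0.513). The groups of Tigar nearly met.

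Of the 7 pentose phosphate genes 5 were above 0 and 2 below, Rpia (-0.18) and Rpe (-0.23). Their median log2 fold change was 0.24, against -0.02 for the 9 tested genes of the hexose phosphate steps and 0.01 for the 11 of lower glycolysis. As given above, the values of Pgd, Tkt, G6pdx and Pgls were smaller without knockout replicate 2. In the LDH set 5 of the 7 were above 0 and 2 below as well, with a median of 0.08. Summed TPM of the 3 oxidative enzymes was 949, 1108 and 937 in Acly knockouts and 856, 804 and 852 in their controls, so that every knockout was above every control. In the LDH set the same sum was 652, 677 and 645 in knockouts and 626, 645 and 589 in controls, where the lowest knockout and the highest control were level. The abundant enzymes Gapdh (0.16), Pkm (0.23), Eno1 (0.09), Gpi1 (0.23) and Aldoa (0.04) overlapped between the Acly groups, and in each of these 5 genes knockout replicate 2 was the highest of the 6 samples. The sums of other markers differed as well: fibroblast and perichondrium markers were at 1112 to 2861 CPM in knockouts and 3261 to 4052 CPM in controls, with 7 of 7 lower and 0 called. All 12 muscle markers were also lower (128 to 333 against 303 to 400 CPM, 0 called). Of 6 tested bone-forming markers 5 were lower, of 5 red blood markers 5 and of 8 proliferation markers 7, with 0 called. Of 8 tested fat markers 6 were higher and of 6 endothelial markers 5, with 0 called. Of 8 chondrocyte markers 7 were higher, and 2 of them were called, Col2a1 and Comp. Their part in the values of the members was not tested.

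**Figure D4:**
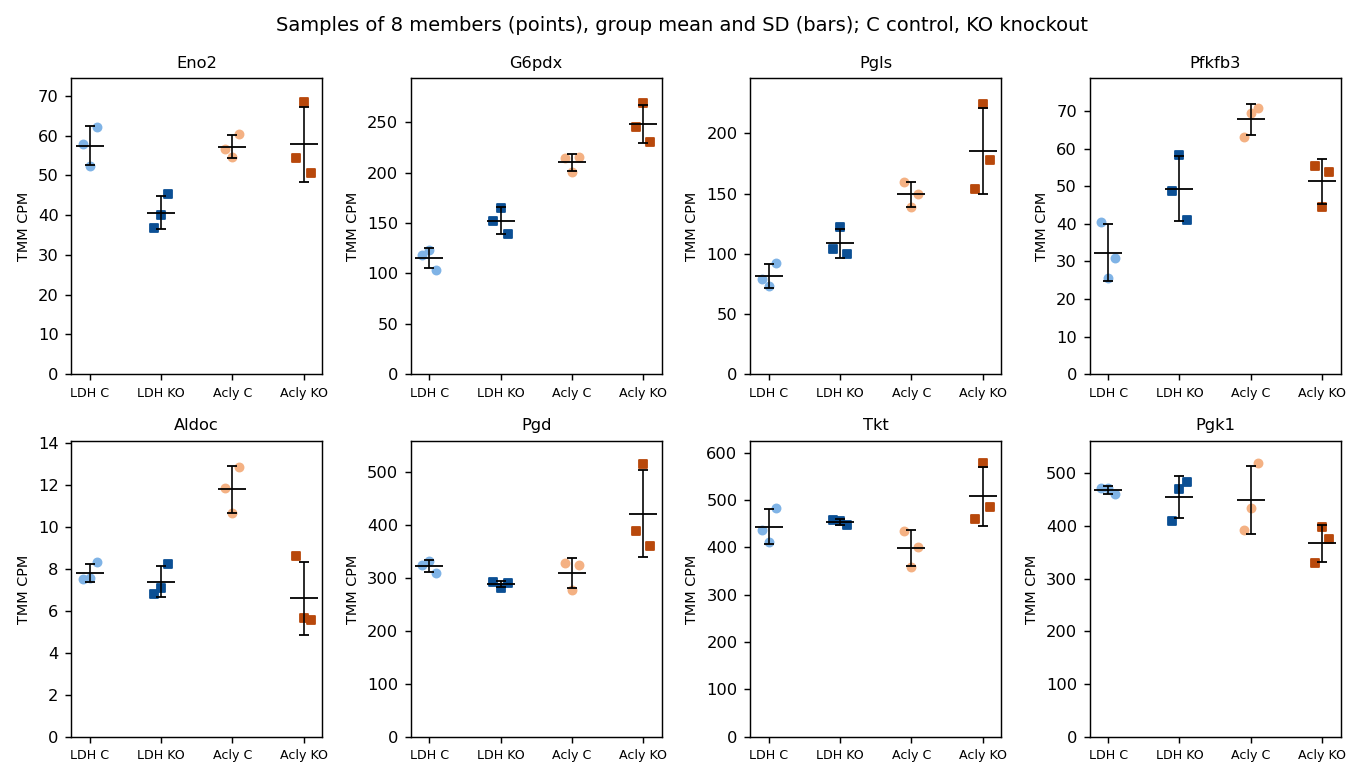
TMM-scaled CPM of 8 members, with 1 point per sample and bars for the group mean and SD (n = 3), scaled within each set, so that levels are to be compared within a set. Eno2 is lower in LDH knockouts (36.8 to 45.2 CPM) than in their controls (52.4 to 62.1 CPM), and Pfkfb3 lies above its controls in the LDH set and below them in the Acly set.

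Whether the effects of the LDH and Acly knockouts differ was tested as an interaction over all 12 samples, in which age and the gene deleted cannot be told apart. Of 31 members tested 0 passed in edgeR, against 0.161% of 14251 genes, with 10 members at an unadjusted p under 0.05 against 13.0% of all genes. DESeq2 called 3, Pfkfb3, Eno1b and Pgd. For Pfkfb3 the LDH effect exceeded the Acly effect by 1.03 on the log2 scale (standard error 0.23, edgeR adjusted p 0.101). This difference passed without LDH knockout replicate 3 (edgeR adjusted p 0.0370) and without LDH control replicate 1 (0.0466), and it kept its sign in 17 of 17 alternatives. For Pgd the difference was -0.59 (standard error 0.16, edgeR adjusted p 0.178), since its values were below the controls in the LDH knockout and above them in the Acly knockout. For Aldoc it was 0.77 and for Eno2 -0.50, with edgeR adjusted p of 0.258 and 0.250. G6pdx, higher in every knockout of both sets, had a difference of 0.18 with a standard error of 0.13. The value for Eno1b, 3.45 with a standard error of 0.90, rests on Acly samples at or near 0 counts, and ranged from 2.49 to 6.95 with 1 sample left out (2.49 without Acly control replicate 2, 6.95 without Acly knockout replicate 3).

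The control groups were set side by side to show how far the sets differ, where age, mouse line and any library batch cannot be told apart. Of 31 members 20 were called, 12 higher and 8 lower in Acly controls at E18.5 than in LDH controls at postnatal day 5, and 55.0% of all genes were called (29.4% higher, 25.7% lower). The share among the members, 64.5%, is not far from that background. It includes Pgam2 (higher) and Eno1b (lower), each of which passed the filter on low counts only through the set where it is high. The calls of Pgam2 and Eno1b are therefore no independent result. Pfkfb1, Hk3, Pfkfb3, Pfkp, Pgls and G6pdx were higher in Acly controls, by 1.52, 1.22, 0.91, 0.80, 0.72 and 0.71 on the log2 scale. G6pdx was at 200 ± 8.30 CPM in Acly controls and 122 ± 11.4 CPM in LDH controls (SD, n = 3, scaled over 12 samples), and Pfkfb3 at 64.4 ± 3.68 and 34.2 ± 8.10 CPM. The difference between the sets thus exceeded the difference between knockout and control of either gene. Hk2 (-0.44), Rpe (-0.43), Pgam1 (-0.38) and Taldo1 (-0.36) were lower in Acly controls.

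Muscle forms were among the genes higher in Acly controls: Eno3 by 0.50, Pfkm by 0.42 and Pgam2 by 3.24 on the log2 scale. Pgam2, at 1 to 10 counts in LDH samples, was in this comparison only because of its level in the Acly samples. All 12 muscle markers were called higher there too, with a summed level of 303 to 400 CPM against 18.9 to 31.4 CPM, and their part in these values was not tested. The direction of small differences in this comparison depends on scaling: without TMM the median over all genes was 0.19 on the log2 scale rather than 0.02, and 15 members were called higher and 3 lower. The number of members called was 15 to 18 with 1 sample left out. Aldoc, higher in Acly controls by 0.44 (edgeR adjusted p 0.0465), was called in 2 of 10 alternatives and in none of the 6 that leave out a sample (edgeR adjusted p 0.0506 to 0.143). No member called here changed direction in 10 alternatives, and Gapdh, Gpi1, Tkt, Taldo1 and Rpe were no longer called without TMM.

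The make-up of steps with several isozymes was compared as shares of summed TPM, 12 comparisons in all, for which 3 against 3 samples allow no exact permutation p (two-sided) below 0.1. Adjusted over the 12, the lowest is 0.2, so that none passes. Eno2 took 1.11% ± 0.10 of enolase TPM in LDH knockouts and 1.85% ± 0.10 in controls, with separate groups (exact p 0.1), and 1.94% ± 0.27 and 2.01% ± 0.03 in the Acly set, which overlapped (exact p 0.7). The enolase sum includes Eno1b, whose value is uncertain, at a mean of 635 TPM in LDH knockouts and 284 TPM in LDH controls. A higher Eno1b by itself lowers the share of Eno2. Hk2 took 21.2% ± 0.21 of hexokinase TPM in LDH knockouts and 23.9% ± 1.82 in controls (exact p 0.1), and 15.7% ± 2.66 against 19.2% ± 1.34 in the Acly set (exact p 0.2). The mean share of Hk2 was lower in both knockouts, with separate groups in the LDH set and overlap in the Acly set. Pfkfb3 took 67.1% ± 1.35 of the summed Pfkfb TPM in Acly knockouts and 74.4% ± 1.21 in controls, with separate groups (exact p 0.1), and 74.7% ± 1.84 against 69.5% ± 6.02 in the LDH set, which overlapped (exact p 0.3). Aldoc took under 1% of aldolase TPM in every group, 0.301% ± 0.107 in Acly knockouts against 0.538% ± 0.022 in controls and 0.323% ± 0.060 against 0.402% ± 0.011 in the LDH set, each with separate groups (exact p 0.1). Pfkl held 63.0% to 74.7% of phosphofructokinase TPM as a group mean, with overlap in both sets (exact p 0.2 each).

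The genes around both pathways were counted from hand-written lists. In the LDH comparison 1 of 11 genes that branch off glycolysis was called, Gpd1, the glycerol 3-phosphate dehydrogenase of the cytoplasm that also returns NADH to NAD+, higher with a log2 value of 3.11 (standard error 0.39, edgeR adjusted p 0.00716). It is also abundant in fat cells, whose markers were higher in the same knockouts, and the part of such cells was not tested. No gene was called among 11 tested other enzymes of glycolysis and pentose metabolism, 14 genes of glycogen turnover, 9 of glucose and lactate transport, 14 regulators of glycolysis and 13 genes of the pyruvate dehydrogenase step. Of the 72 tested genes on all these lists, 17 were at an unadjusted edgeR p under 0.05 in the LDH comparison, where 19.6% of all genes were. In the Acly comparison 0 of these 72 genes were called by edgeR. There 14 were at an unadjusted p under 0.05, against 15.8% of all genes. Their median log2 fold changes by list lay between -0.12 and 0.10 in the LDH set and between -0.10 and 0.06 in the Acly set.

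RefSeq promoter windows were found for 33 of the 34 genes, 50 windows in all since some genes have several starts. ACGTG or GCGTG on either strand, the letters shared by hypoxia response elements, occurred within 250 bases before the start in 34 of the 50 (68.0%) and in 38.6% of all 32851 windows of the table. The matches fell in 25 of the 33 genes, a count for which the share over all genes was not worked out. The genes without a match were Eno2, Tpi1, Gpi1, Rpe, Tigar, Pgam2, Hkdc1 and Fbp1. Windows of the same gene can overlap and hold the same match, as for Aldoa and Eno1. The windows were not matched for base composition. The antioxidant core TGACNNNGC was in 4 of the 50 windows (8.0%) and in 10.2% of all, and the E-box CACGTG, which holds ACGTG on both strands, in 4 (8.0%) and in 6.0% of all. A match describes letters and not a bound site, and binding was not measured here.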

How the data were processed

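RNA-seq of 12 samples was deposited as 1 table of 17922 genes. Per the file headers it gives counts, FPKM and TPM per gene and sample. Of the deposited counts, 7.32% to 8.16% per sample are not whole, so they were handled as estimated counts and rounded. How the authors made these estimated counts before they were deposited is not given per the file headers or labels. The FPKM values deposited by the authors served as an alternative, and the TPM values deposited by the authors served to compare genes by length-corrected level. The submitters' processing notes name HISAT2 2.0.4 and mm9; the counting program, annotation and use of strand are not given in the sources used here.

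Counts were tested in R 4.3.3 with edgeR 4.0.16 (TMM, filterByExpr, two-sided quasi-likelihood tests, Benjamini-Hochberg adjustment over all genes, threshold 0.05). Each knockout was fitted with its own controls. The difference between knockouts and the control comparison used all 12 samples. Standard errors are the log2 fold change divided by the square root of F. The scripts were tested on simulated data. Depth gives a floor of 3 counts, which covers counting error only.

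Genes named with full values passed a threshold, or had an unadjusted p under 0.05 with separate groups, or were the most abundant of their step, and some others are named for their role. The members, gene lists and tests were chosen with earlier results of these data known. Alternatives were other scaling or none, no filter, DESeq2 1.42.0, limma 3.58.1 on log2(FPKM + 1) and log2(FPKM + 0.1) with an FPKM of at least 0.5 in 3 samples, a replicate block, a Y-linked covariate, a fit of all samples, and each sample left out. Promoter sequences are RefSeq's on GRCm38.p6.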

Additional observations from a re-analysis of the deposited data

How the results depend on the processing

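Groups of 3 limit every test, and the controls' genotype, the number of animals per sample and the read assignment between near-identical copies are not known. Eno1b was called in 14 and Eno2 in 10 of 15 alternatives. All alternatives were planned.

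The number of LDH members called (2) was 5 with DESeq2 (Pfkfb3, Eno1b, G6pdx, Pgls and Eno2), 0 with the Y-linked covariate and 1 to 6 with a sample left out, 6 without LDH knockout replicate 3. Genes called in that comparison (332) numbered 902 with DESeq2, 3 with the covariate (1781 at an unadjusted p under 0.05 in edgeR) and 95 to 1068 with a sample left out. Genes called in the Acly comparison (19) numbered 11 without scaling, 32 without the filter, 253 with DESeq2, 8 with the replicate block, 6 with the covariate, 31 with all samples in the fit and 0 to 132 with a sample left out (0 in edgeR without control replicate 1 or 3, with 2323 and 1008 at an unadjusted p under 0.05). Acly members called were 1 with DESeq2 and 0 with any sample left out. For the difference of effects (23 genes, 0 members), DESeq2 gave 213 and 3, the block 5 and 0, and leaving out a sample 5 to 143 and 0 to 1. Without scaling, 27.3% rather than 42.1% of Acly calls were higher, and 72.4% rather than 53.3% in the control comparison. The summed Eno1 and Eno1b counts (0.24) were called only as Eno1b alone (1.19). The cause of these changes was not tested.

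Same-numbered knockout and control samples did not deviate together (LDH correlations -0.159 to 0.0491, Acly -0.222 to 0.0011), so the numbers were not taken as pairs. With the block, 362 genes and 3 members were called in the LDH comparison, G6pdx in addition with an edgeR adjusted p of 0.0412.

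Signs turned only for members that were not called. With the covariate the LDH values of Hk1, Tpi1, Pgk1, Eno1, Rpe and Tkt were -0.093, -0.081, 0.0025, -0.10, 0.13 and -0.17. That fit rests largely on LDH control replicate 3. Acly values of Aldoa were -0.012 without scaling and -0.018 on either FPKM scale. Leaving out a sample gave -0.092 to 0.029 for Pgk1, -0.0075 to 0.13 for Eno1, -0.024 to 0.096 for Tkt and -0.11 to 0.030 for Gpi1 in the LDH set, -0.052 to 0.11 for Aldoa and -0.034 to 0.22 for Eno1 in the Acly set, and -0.206 to 0.0678 percentage points for the Eno2 share in the Acly set.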
